A study of Mus musculus with 23 samples.

Results

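A set of 10 genes is described here in mouse testes that are starting to make sperm and in explants of such testes kept in culture. The set holds 9 genes known as targets of p53 or mediators of cell death (Cdkn1a, Mdm2, Bax, Bbc3, Ccng1, Phlda3, Trp53inp1, Gdf15 and Fas) and the survival gene Bcl2. They are 10 of the 27466 genes in the count table, and they were chosen with their levels in these libraries in view, so their own values are given as a description and without a test. Tests are given for 93 other genes of the same pathways, in 8 lists. These lists were also chosen with earlier results of these data known, so their counts and p-values are no independent support.

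The samples were testes of wild-type CD-1 mice, an outbred stock, taken 6.5 days postpartum (dpp) or at the later ages of 10.5, 22.5 or 36.5 dpp, and explants of 6.5 dpp testes kept for 4, 16 or 30 days in culture (D4, D16 and D30). Those days correspond in age to the testes of 10.5 dpp (D4), 22.5 dpp (D16) and 36.5 dpp (D30). Tissue was fresh (FT) or had undergone controlled slow freezing and thawing (CSF), and the medium of every explant was α-MEM with 10% serum replacement, gentamicin and retinol given every 8 days. Explants of a culture were pooled, and the necrotic centre of each explant was cut away before RNA extraction, so the culture libraries describe the tissue that remained. Of the groups, 6.5 dpp (1 FT and 3 CSF) and D30 (3 FT and 1 CSF) hold 4 libraries each, 10.5 dpp, 22.5 dpp and D4 hold 3, and 36.5 dpp and D16 hold 2, and a library has 28351546 to 69029328 counted reads. Of the 23 columns, 2 were left out. The column of 6.5 dpp FT replicate 3 is the same as that of FT replicate 2 for every gene, and 6.5 dpp FT replicate 1 resembled a culture library (Spearman correlation over genes of 0.985 with D16 replicate 1 and 0.928 with FT replicate 2). Of the libraries kept, 6.5 dpp CSF replicate 3 stood apart from the other 3 of its age, with a Spearman correlation of 0.964 with FT replicate 2, against 0.985 and 0.984 for CSF replicates 1 and 2, a TMM scaling factor of 1.01 against 1.11 to 1.12, and the lowest read total. The labels do not say which animals gave which replicate, so the p-values measure the spread between these libraries, which may be partly technical.

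p53, the product of Trp53, is a transcription factor that is kept at a low level by the ubiquitin ligase Mdm2 and accumulates after DNA damage and other stress. It then switches on genes that stop the cell cycle, such as Cdkn1a, and genes that open the mitochondrial route to apoptosis, such as Bax and Bbc3, while Bcl2 holds that route closed. In the testis many germ cells die during the first wave of spermatogenesis, and p53 is known to take part in that death and in the response of germ cells to DNA damage.

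p53 binds DNA as a tetramer over a pair of decameric half-sites, and the promoters of the set were searched for the p53 half-site consensus. That consensus reads the same on both strands, so each match covers both. The promoters were the RefSeq stretches of 300 bases per gene start (250 before and 50 after it, GRCm38.p6), in which 9 of the 10 genes had an entry. Trp53inp1 was the gene without an entry. These 9 genes have 13 entries, of which 4, each of another gene, held a match, while 8.36% of all 32851 entries held one. Of 19 further p53 targets with an entry, 4 held one in any of their entries, a count of genes that cannot be set against the share of entries. Cdkn1a held a pair of matches with 12 bases between them, and 0.0731% of entries held any pair at most 13 bases apart. The search took exact matches alone, so a half-site with a mismatch, or a pair holding one, was not counted. The 10 bases that directly follow the second Cdkn1a match differ from the consensus in their first letter alone. Which of these half-sites p53 pairs here was not tested. The following stretches are the matches in capitals with 10 bases on each side, shown because half-sites of this form are the letters that p53 is known to read. They lie at chr17:29090896-29090925 and chr17:29090918-29090947 (plus strand, Cdkn1a), chr10:117710925-117710954 (minus strand, Mdm2), chr7:45467080-45467109 (minus strand, Bax) and chr11:40755452-40755481 (minus strand, Ccng1), and the matches begin 73, 51, 186, 201 and 185 bases before the transcript start on which the entry is built. For Bax and Ccng1 that start lies inside the gene span given with their levels.
Cdkn1a, first match: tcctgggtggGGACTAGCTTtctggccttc
Cdkn1a, second match: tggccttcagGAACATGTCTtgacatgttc
Mdm2: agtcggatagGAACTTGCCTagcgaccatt
Bax: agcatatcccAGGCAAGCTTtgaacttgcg
Ccng1: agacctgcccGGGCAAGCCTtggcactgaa
No match was found in the entries of Bbc3, Phlda3, Gdf15, Fas and Bcl2, which says only that these letters are not in those windows. A match is a run of letters, and binding was not measured here.

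Levels are given in CPM, counts scaled to a common library total, in the order of the replicates, FT before CSF. They compare a gene between libraries and not one gene with another. Differences are log2 values ± SE of a fit over all 7 stages, scaled by the trimmed mean of M-values (TMM). The TMM factor was 0.661 and 0.674 at 36.5 dpp and between 0.880 and 1.14 elsewhere, so against 36.5 dpp a gene higher at D30 differs less on the fitted scale than as a ratio of CPM, and a lower gene more. With the library size as the scale, the median of all genes for D30 against 36.5 dpp moved from -0.03 to 0.60, and for 36.5 against 22.5 dpp from -0.13 to -0.63.

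Between 10.5 and 22.5 dpp in vivo, 8 of the 10 genes followed 2 courses, and the libraries of these ages overlapped in Fas and Trp53inp1. Cdkn1a and Mdm2 were higher at 22.5 dpp than at 10.5 dpp, while Bax, Bbc3, Ccng1, Phlda3, Gdf15 and Bcl2 were lower there, with no overlap between the libraries of the 2 ages in these 8 genes. In culture these lower levels at later ages were less marked. At D30 against 36.5 dpp, 9 of the 10 genes were higher with no overlap in CPM, with the largest fitted differences in Bcl2, Ccng1 and Phlda3, and the remaining gene, Mdm2, overlapped. Already at D4, Cdkn1a, Bbc3, Gdf15 and Fas lay above every 10.5 dpp library, and Bax and Phlda3 lay below. Of all genes tested, 33.3% were higher and 45.2% lower without overlap for 22.5 against 10.5 dpp. The share was 17.3% higher and 31.2% lower for D4, where 4 and 2 of the 10 were, 29.2% and 21.5% for D16, where 8 and 1 were, and 47.6% and 25.2% for D30, where 9 and 0 were. Since the genes were chosen on these levels, nothing is read from those counts.

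**Figure D1:**
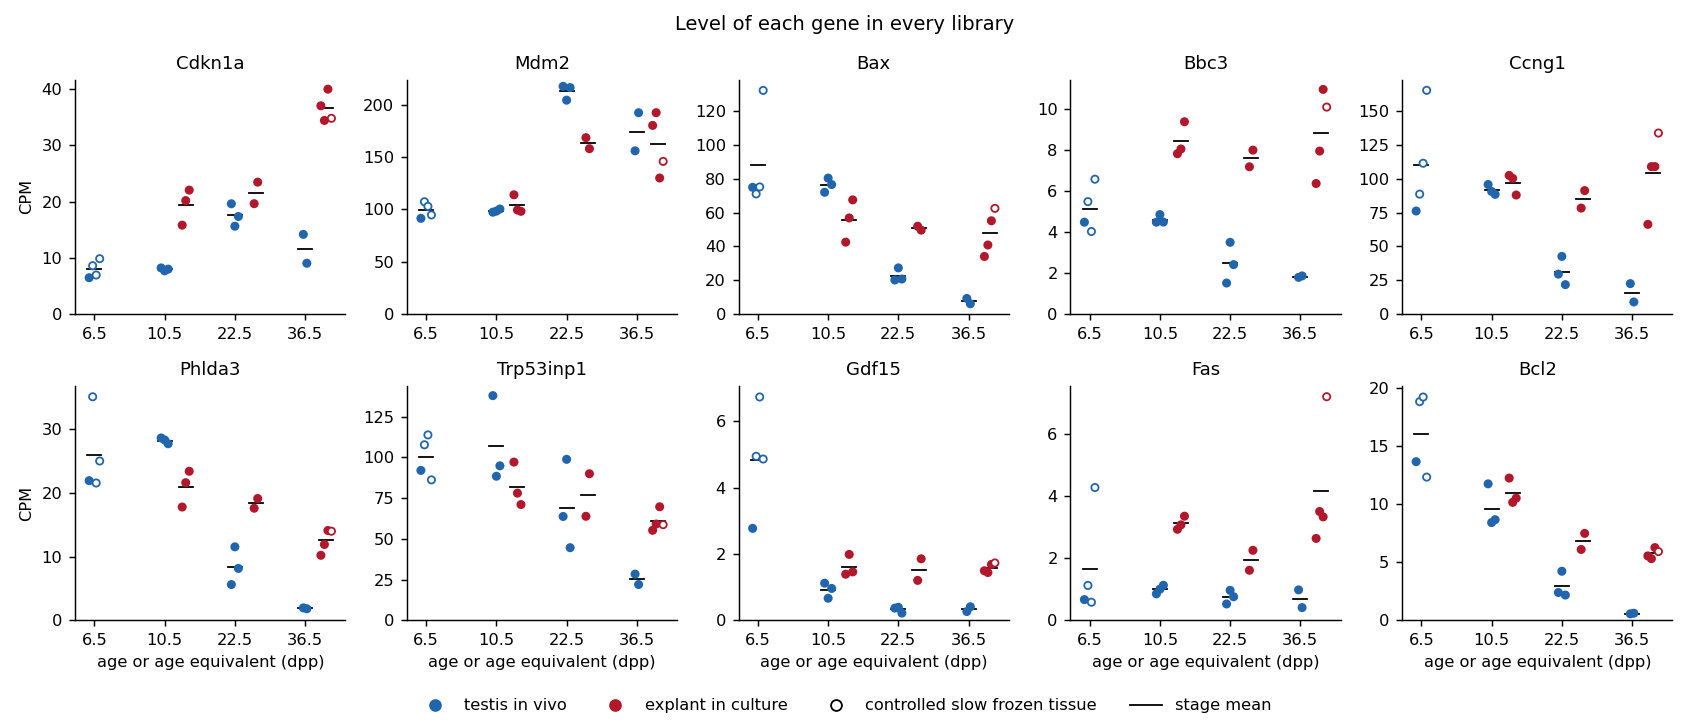
Level of each of the 10 genes in CPM (vertical axis, from 0) against age or age equivalent in dpp (horizontal axis). Each point is 1 library, blue in vivo, red in culture and open for frozen tissue, and black lines are stage means. Cdkn1a lies between 34.5 and 40.0 CPM in the 4 D30 libraries, and Bax, Phlda3 and Bcl2 lie above their 36.5 dpp libraries there.

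Mdm2 (Entrez 17246, chromosome 10, 117688875 to 117710758 on GRCm38.p6) encodes the ligase that marks p53 for degradation and is itself a p53 target. Testes of 6.5 dpp gave 91.5, 107, 103 and 94.7 CPM, those of 10.5 dpp 97.3, 98.4 and 100.4, those of 22.5 dpp 218, 205 and 217 and those of 36.5 dpp 156 and 192. The 22.5 dpp libraries all lay above those of 6.5 and 10.5 dpp, and those of 36.5 dpp lay between. D4 explants gave 114, 99.4 and 98.2 CPM, D16 explants 169 and 158 and D30 explants 180.3, 193, 130.1 and 146. The D4 libraries overlapped those of 10.5 dpp, both D16 libraries lay under all 3 of 22.5 dpp, and D30 overlapped 36.5 dpp. Fitted log2 differences from the age-matched testis were 0.16 ± 0.17 (D4), -0.54 ± 0.19 (D16) and -0.74 ± 0.18 (D30). With the library size as the scale, the last of these was -0.10, so the size of the lower level at D30 rests on the scaling.

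Cdkn1a (Entrez 12575, chromosome 17, 29090979 to 29100722) encodes p21, an inhibitor of cyclin-dependent kinases that halts the cell cycle. The 6.5 dpp libraries held 6.45, 8.59, 6.93 and 9.84 CPM of it, 10.5 dpp libraries 8.19, 7.68 and 7.98, 22.5 dpp libraries 19.6, 15.6 and 17.4 and 36.5 dpp libraries 14.2 and 9.03. Its culture levels were 15.8, 20.2 and 22.05 CPM (D4), 19.6 and 23.5 (D16) and 37.1, 34.5, 40.03 and 34.8 (D30). The 3 D4 libraries lay above all 7 libraries of 6.5 and 10.5 dpp, the lower D16 library stood beside the highest of 22.5 dpp, and the 4 D30 libraries were above every other library of the study. Against testis of the same age the log2 difference was 1.37 ± 0.22 on D4, 0.13 ± 0.24 on D16 and 1.02 ± 0.24 on D30. D4 was 1.29 ± 0.20 log2 above 6.5 dpp, where 1 library was fresh and 3 were frozen, while the D4 explants were all of fresh tissue. The left-out library 6.5 dpp FT replicate 1 had 16.4 CPM, and with it the log2 difference of D4 from 6.5 dpp was 0.95, while without 6.5 dpp CSF replicate 3 it was 1.46. Within culture, D30 was 0.79 ± 0.23 log2 above D16.

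Ccng1 (Entrez 12450, chromosome 11, 40748552 to 40755309) encodes cyclin G1, an atypical cyclin long used as a p53 reporter. Its in vivo levels were 76.2, 88.8, 112 and 166 CPM (6.5 dpp), 95.9, 90.7 and 88.6 (10.5 dpp), 29.5, 42.6 and 21.7 (22.5 dpp) and 22.5 and 8.87 (36.5 dpp). Cultured tissue held 103, 100.4 and 88.1 CPM on D4, 78.4 and 91.4 on D16 and 66.4, 109, 109 and 134 on D30. All 9 culture libraries lay above all 5 libraries of 22.5 and 36.5 dpp, and they overlapped those of 6.5 and 10.5 dpp. Relative to the age-matched testis, D4 differed by 0.17 ± 0.33 log2, D16 by 1.30 ± 0.37 and D30 by 2.10 ± 0.39.

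Bax (Entrez 12028, chromosome 7, 45461695 to 45466903) encodes the protein that permeabilises the outer mitochondrial membrane. From 6.5 dpp testes 74.9, 71.04, 75.2 and 132 CPM were counted, from 10.5 dpp testes 72.02, 80.4 and 76.6, from 22.5 dpp testes 20.1, 27.3 and 20.7 and from 36.5 dpp testes 9.18 and 6.02. D4 explants gave 42.5, 56.8 and 67.5 CPM, D16 explants 51.9 and 49.6 and D30 explants 34.02, 40.8, 55.1 and 62.5. The D4 libraries lay below those of 10.5 dpp, and those of D16 and D30 above those of 22.5 and 36.5 dpp. Fitted log2 differences from the age-matched testis were -0.37 ± 0.27 (D4), 1.02 ± 0.30 (D16) and 2.02 ± 0.32 (D30).

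Bbc3 (Entrez 170770, chromosome 7, 16308398 to 16318334) encodes Puma, a BH3-only protein that triggers Bax. Testes of 6.5 dpp gave 4.47, 5.47, 4.01 and 6.56 CPM, those of 10.5 dpp 4.47, 4.84 and 4.47, those of 22.5 dpp 1.51, 3.49 and 2.402 and those of 36.5 dpp 1.78 and 1.85. Its culture levels were 7.801, 8.03 and 9.36 CPM (D4), 7.16 and 7.98 (D16) and 6.35, 7.93, 10.9 and 10.1 (D30). Every D4 library lay above every in vivo library, and so did those of D16. Against testis of the same age the log2 difference was 0.96 ± 0.26 on D4, 1.48 ± 0.29 on D16 and 1.63 ± 0.30 on D30, and D4 was 0.72 ± 0.24 log2 above 6.5 dpp, or 0.92 without 6.5 dpp CSF replicate 3.

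Bcl2 (Entrez 12043, chromosome 1, 106538176 to 106714290) encodes the founding inhibitor of this route. The 6.5 dpp libraries held 13.7, 18.8, 19.2 and 12.3 CPM of it, 10.5 dpp libraries 11.8, 8.43 and 8.67, 22.5 dpp libraries 2.403, 4.23 and 2.18 and 36.5 dpp libraries 0.564 and 0.617. Cultured tissue held 12.3, 10.2 and 10.5 CPM on D4, 6.11 and 7.496 on D16 and 5.55, 5.32, 6.27 and 5.93 on D30. It was lower at each age in vivo without overlap, down to under 1 CPM at 36.5 dpp, whereas no D30 library had less than 5.32 CPM. Relative to the age-matched testis, D4 differed by 0.28 ± 0.22 log2, D16 by 1.07 ± 0.25 and D30 by 2.64 ± 0.28, and D16 was at a log2 difference of -0.64 ± 0.25 from D4. The gene holds the microRNA gene Mir3473f, listed at 0 in these libraries, and the lncRNA Gm37053, which has no row in the table.

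Bax and Bcl2 were both higher in late culture than in the testis, and a ratio of their counts within each library compares them without any scaling. The ratio of Bax to Bcl2 counts spanned 3.77 to 10.7 in the 6.5 dpp libraries, 6.12 to 9.54 in those of 10.5 dpp, 6.44 to 9.48 in those of 22.5 dpp and 9.75 to 16.3 in those of 36.5 dpp. Among explants it spanned 3.47 to 6.41 (D4), 6.62 to 8.498 (D16) and 6.13 to 10.5 (D30). The ranges overlapped between culture and testis at each of the 3 ages, although each of the 2 genes differed by more than 2 on the log2 scale at D30. The mean log2 ratio was lower in culture, at 2.32 (D4), 2.91 (D16) and 3.02 (D30). In the testes of matching age it was 3.00, 3.00 and 3.65. At D30 the ratio of 10.5 was that of the CSF library, and the highest FT ratio was 8.79. Since the transcripts differ in length, the value is no ratio of molecules.

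Fas (Entrez 14102, chromosome 19, 34290647 to 34327775) encodes a death receptor at the cell surface. Its in vivo levels were 0.668, 1.12, 0.584 and 4.27 CPM (6.5 dpp), 0.853, 1.001 and 1.13 (10.5 dpp), 0.528, 0.965 and 0.759 (22.5 dpp) and 0.980 and 0.411 (36.5 dpp). D4 explants gave 2.93, 3.07 and 3.35 CPM, D16 explants 1.61 and 2.25 and D30 explants 2.63, 3.496, 3.32 and 7.18. Every D4, D16 and D30 library lay above every library of the matching age. The highest values stood in frozen tissue, 6.5 dpp CSF replicate 3 and the D30 CSF library. Fitted log2 differences from the age-matched testis were 1.73 ± 0.61 (D4), 1.21 ± 0.67 (D16) and 1.95 ± 0.71 (D30), with wide errors at these low counts.

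Phlda3 (Entrez 27280, chromosome 1, 135766085 to 135769134) encodes a small protein that competes with the kinase Akt for membrane lipids. From 6.5 dpp testes 21.9, 35.1, 21.6 and 25.01 CPM were counted, from 10.5 dpp testes 28.6, 28.3 and 27.7, from 22.5 dpp testes 5.62, 11.5 and 8.16 and from 36.5 dpp testes 1.96 and 1.83. Its culture levels were 17.8, 21.6 and 23.4 CPM (D4), 17.6 and 19.1 (D16) and 10.2, 11.9, 14.1 and 13.99 (D30). D4 lay below 10.5 dpp, and D16 and D30 above 22.5 and 36.5 dpp. Against testis of the same age the log2 difference was -0.35 ± 0.21 on D4, 0.98 ± 0.23 on D16 and 2.09 ± 0.26 on D30, although the level in culture was itself lower at D30 than at D16, with a difference of -0.53 ± 0.22 log2.

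Trp53inp1 (Entrez 60599, chromosome 4, 11156441 to 11174379) encodes a stress-induced nuclear protein that promotes p53 activity and autophagy. Testes of 6.5 dpp gave 92.01, 108, 114 and 86.2 CPM, those of 10.5 dpp 138, 88.4 and 94.8, those of 22.5 dpp 63.7, 98.8 and 44.6 and those of 36.5 dpp 28.4 and 22.01. Cultured tissue held 97.1, 78.1 and 71.1 CPM on D4, 63.9 and 89.97 on D16 and 55.3, 59.1, 69.7 and 58.7 on D30. The libraries of D4 and D16 overlapped those of the matching ages, and the 4 of D30 lay above both of 36.5 dpp. Relative to the age-matched testis, D4 differed by -0.29 ± 0.23 log2, D16 by 0.02 ± 0.25 and D30 by 0.63 ± 0.25.

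Gdf15 (Entrez 23886, chromosome 8, 70629393 to 70632470) encodes a secreted cytokine of the TGF-beta family that many stresses induce. The 6.5 dpp libraries held 2.78, 4.95, 6.74 and 4.87 CPM of it, 10.5 dpp libraries 1.12, 0.667 and 0.964, 22.5 dpp libraries 0.370, 0.395 and 0.221 and 36.5 dpp libraries 0.267 and 0.411. D4 explants gave 1.39, 1.99 and 1.46 CPM, D16 explants 1.21 and 1.86 and D30 explants 1.497, 1.44, 1.69 and 1.73. All 4 libraries of 6.5 dpp stood above all others of the study. The 9 culture libraries lay above all 8 in vivo libraries from 10.5 dpp on. Fitted log2 differences from the age-matched testis were 0.89 ± 0.32 (D4), 2.04 ± 0.37 (D16) and 1.57 ± 0.39 (D30), while against 6.5 dpp the log2 difference was -1.56 ± 0.30 at D4 and -2.45 ± 0.31 at 10.5 dpp. The left-out 6.5 dpp FT replicate 1 had 0.973 CPM, and with it these became -1.32 and -2.21. Without 6.5 dpp CSF replicate 3 they were -1.51 and -2.40. Over 27 alternatives they lay between -1.76 and -0.72 and between -2.65 and -1.62, so their size depends on the libraries and the fit. The FT library of 6.5 dpp was the lowest of its group, at 2.78 CPM.

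**Figure D2:**
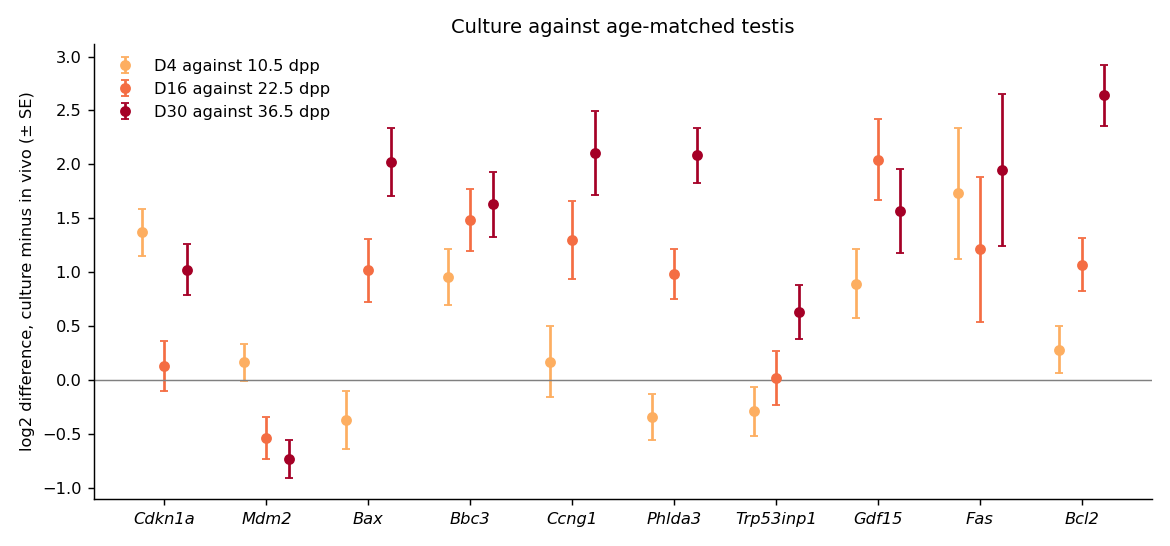
Fitted log2 difference of culture minus age-matched testis (vertical axis) for each of the 10 genes, with its SE, at D4, D16 and D30. The D30 difference lies above the D4 difference in 8 genes, in Fas within its SE, and below it in Mdm2 and Cdkn1a. With the library size as the scale the D30 minus D4 value of Cdkn1a turned from -0.35 to 0.38, and that of Fas turned sign in 5 of 27 alternatives.

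Over the 21 libraries, the gene most like each member by the correlation of log2(CPM + 1), among 12938 genes with a mean of at least 5 CPM, was C3 with r = 0.956 for Cdkn1a, Bbs7 with r = 0.983 for Mdm2, Polr2h with r = 0.989 for Bax, Asah1 with r = 0.992 for Ccng1, Nfib with r = 0.988 for Bcl2, Bik with r = 0.930 for Fas, Tspan4 with r = 0.972 for Bbc3, Pbx2 with r = 0.986 for Phlda3, Xpo1 with r = 0.965 for Trp53inp1 and Tesc with r = 0.910 for Gdf15. C3 encodes the central complement component, and Bik encodes a BH3-only death protein. These correlations are descriptions over libraries that share their stage.

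The 93 other genes of these pathways were tested in the same fit, where a gene passed at an adjusted p under 0.05. The first comparison sets explants after 4 days of culture against the age-matched testis. In comparisons with the age-matched testis, rose and fell mean higher and lower in culture than in that testis. They do not mean a change within the explants. At D4 against 10.5 dpp, 10 rose and 5 fell, where 4.92% of all 19255 genes rose and 3.18% fell. Of 26 further p53 targets, 5 rose and 1 fell, with a list median of -0.11 against -0.01 for all genes. Plk2, a polo-like kinase, was at 59.9, 64.5 and 55.9 CPM at D4 and 33.1, 31.6 and 33.9 at 10.5 dpp, a difference of 0.96 ± 0.15 log2 (adjusted p = 4.36e-04). Sesn2, a sestrin that restrains mTORC1, was higher by 0.99 ± 0.21 log2 (adjusted p = 0.00652), at 173, 208 and 218 CPM at D4 against 94.7, 123 and 103 at 10.5 dpp. Perp, a desmosome protein, was higher by 1.90 ± 0.43 log2 (adjusted p = 0.00821), at 9.12, 5.52 and 4.93 CPM at D4 against 1.91, 1.78 and 1.89 at 10.5 dpp, and lost the call without D4 replicate 1. The other two were Gadd45a (1.21 ± 0.27 log2) and Tigar (0.76 ± 0.20 log2), named after their values were seen. All 5 were higher in each D4 library than in each 10.5 dpp library. The gene that fell was Ephx1, an epoxide hydrolase, at 17.97, 28.2 and 32.3 CPM against 45.9, 59.8 and 52.2 (-0.92 ± 0.22 log2, adjusted p = 0.0119).

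Among the 11 regulators of p53, 2 fell at D4 and none rose. They were Cdkn2a, which encodes the Mdm2 inhibitor Arf besides p16 (-0.86 ± 0.25 log2, adjusted p = 0.0383), and Trp63, a p53 relative of the germ line (-1.58 ± 0.34 log2, adjusted p = 0.00639). Trp53 itself was at 81.6, 89.7 and 92.3 CPM at D4 and 89.2, 89.96 and 95.1 at 10.5 dpp. Of 8 genes of the integrated stress response, 3 rose. Atf4, its transcription factor, rose by 0.74 ± 0.18 log2 (adjusted p = 0.0125), and its targets Chac1 and Trib3 by 2.44 ± 0.37 log2 (adjusted p = 3.02e-04) and 1.22 ± 0.31 log2 (adjusted p = 0.0188). In the BCL2 family, Bik was higher, at 35.7, 41.99 and 47.1 CPM at D4 against 17.2, 13.9 and 17.8 at 10.5 dpp (1.44 ± 0.43 log2, adjusted p = 0.0447). Of 5 cyclin-dependent kinase inhibitors besides Cdkn1a, Cdkn2b rose (0.77 ± 0.19 log2, adjusted p = 0.0152) and Cdkn1c fell (-0.84 ± 0.20 log2, adjusted p = 0.0132). Of 10 cell cycle genes that p53 represses through p21 and the DREAM complex, Plk1 fell (-0.90 ± 0.22 log2, adjusted p = 0.0159). None of the 10 death receptor genes and none of the 10 caspases and their regulators passed with edgeR, or with DESeq2, while 3 of each list had an unadjusted p under 0.05.

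The count of 15 at D4 was sensitive to the libraries. It was 8, 9 and 7 without 10.5 dpp replicates 1, 2 and 3, and 8, 8 and 9 without D4 replicates 1, 2 and 3, and 6 with 6.5 dpp FT replicate 1 added to the fit. Plk2, Chac1 and Trp63 passed in each of these. The summed level of 4 macrophage markers was 27.1 to 29.9 CPM at D4 and 92.9 to 119 at 10.5 dpp, that of 4 Leydig cell markers 279.9 to 491 and 655 to 767, and that of 3 erythroid markers 16.3 to 17.5 and 64.4 to 78.1. Sums that were higher at D4 without overlap were those of 4 Sertoli cell markers (1475 to 1782 and 1234 to 1361), 3 endothelial markers (215 to 235 and 167 to 189) and 3 spermatocyte markers (278 to 339 and 166 to 221), and the peritubular and stromal sums overlapped. Their part in these differences was not tested. In bulk tissue, fewer cells of a type and less RNA per cell cannot be told apart.

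At D16 against 22.5 dpp, 37 of the 93 genes rose and 7 fell, where 14% and 11.8% of all genes did. Among the cell death genes, 7 of 10 in the death receptor list, 6 of 10 in the caspase list and 6 of 13 in the BCL2 family rose, with list medians of 0.83, 0.81 and 0.47 against -0.08 for all genes. Casp8, the initiator caspase of death receptors, was at 39.02 and 35.6 CPM against 9.14, 15.7 and 8.79 (1.60 ± 0.25 log2, adjusted p = 3.19e-04). Tnfrsf1a, the main receptor of TNF, was at 123 and 166 against 47.4, 72.5 and 53.8 CPM (1.17 ± 0.24 log2, adjusted p = 0.00227). Bok and Hrk, a Bax relative and a BH3-only protein, were higher by 2.02 ± 0.22 log2 (adjusted p = 7.85e-06) and 4.27 ± 0.51 log2 (adjusted p = 2.54e-05). Hrk was under 1 CPM in each 22.5 dpp library. Casp6 rose by 1.44 ± 0.24 log2 (adjusted p = 4.12e-04). Bcl2l10 fell, with no count at D16 and at most 0.154 CPM at 22.5 dpp.

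Of the further p53 targets, 10 of 26 rose at D16 and Ephx1 fell (-1.41 ± 0.25 log2, adjusted p = 9.56e-04). Plk2 rose by 1.09 ± 0.17 log2 (adjusted p = 2.32e-04), Gadd45a, which slows the cycle after DNA damage, by 1.93 ± 0.30 log2 (adjusted p = 2.94e-04), and Eda2r, a receptor of the TNF family, by 1.95 ± 0.33 log2 (adjusted p = 5.20e-04). Of the stress response genes 7 of 8 rose, with Atf3 at 9.78 and 11.5 CPM against 0.396, 0.877 and 0.316 (4.16 ± 0.44 log2, adjusted p = 5.79e-06). Trp53 rose by 0.77 ± 0.16 log2 (adjusted p = 0.00289), while Trp63 and the checkpoint kinase Atr fell. Of the DREAM genes Plk1, Aurka and Top2a fell, with differences of -1.05 ± 0.26 log2, -1.21 ± 0.34 log2 and -0.88 ± 0.28 log2. None of the 5 kinase inhibitors passed with edgeR, 2 had an unadjusted p under 0.05, and 1 passed with DESeq2. The count of 44 genes was 17 without D16 replicate 2, 26 without 22.5 dpp replicate 1 and 28 without 22.5 dpp replicate 3. The sums of peritubular and stromal, Sertoli cell and endothelial markers were 1087 to 1260.5, 1068 to 1493 and 192 to 255 CPM at D16 and 533 to 791, 519.7 to 804 and 32.6 to 53.1 at 22.5 dpp. Those of Leydig cell and macrophage markers were lower at D16, at 198 to 225 and 86.2 to 111 CPM against 563 to 613 and 130.2 to 191. Their part was not tested.

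At D30 against 36.5 dpp, 47 of the 93 genes rose and 20 fell, in a comparison where 32.4% of all genes rose and 35% fell. Trp53 was at 63.4, 66.00, 94.7 and 69.4 CPM at D30 and 12.9 and 12.5 at 36.5 dpp, a difference of 1.88 ± 0.17 log2 (adjusted p = 1.43e-07). Of the further p53 targets 16 of 26 rose and 2 fell, with a median of 1.01 against -0.03 for all genes. Plk2 was at 68.8, 63.7, 67.5 and 67.6 CPM against 10.2 and 10.4 (2.06 ± 0.18 log2, adjusted p = 8.73e-08). Eda2r rose by 3.38 ± 0.39 log2 (adjusted p = 1.61e-06) and Sesn2 by 2.18 ± 0.25 log2 (adjusted p = 1.67e-06). Rprm, listed at 0 in both 36.5 dpp libraries, was at 1.21, 0.887, 1.13 and 2.71 CPM at D30, at least 35.9-fold higher against a floor of 3 counts over the group. Those that fell were Ephx1, at 36.4, 38.8, 52.9 and 39.8 against 213 and 161 CPM (-2.80 ± 0.22 log2, adjusted p = 4.47e-08), and the TRAIL receptor Tnfrsf10b (-1.01 ± 0.20 log2, adjusted p = 3.50e-04).

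**Figure D3:**
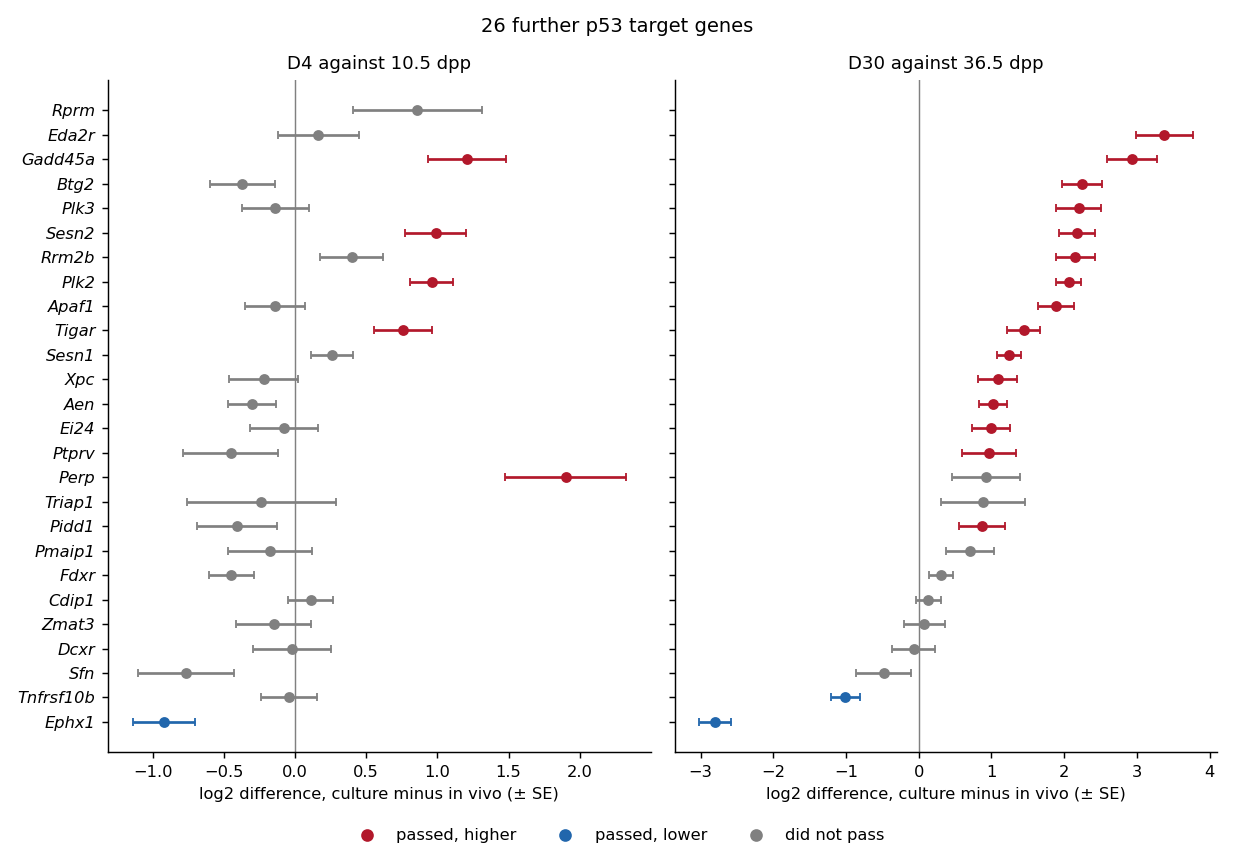
Fitted log2 difference of culture minus age-matched testis (horizontal axes, ± SE) for 26 further p53 targets (rows, ordered by the D30 difference), at D4 on the left and D30 on the right. Red genes passed and were higher, blue genes passed and were lower, and grey genes did not pass, with 5, 1 and 20 genes at D4 and 16, 2 and 8 at D30. Rprm has no point on the right, since it is listed at 0 at 36.5 dpp.

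Of the death receptor genes 8 rose and 2 fell at D30. Casp8 was at 34.4, 37.9, 42.4 and 51.8 CPM against 3.53 and 2.13 (3.24 ± 0.29 log2, adjusted p = 1.45e-07), Tnfrsf1a rose by 2.30 ± 0.26 log2 (adjusted p = 1.11e-06) and the necroptosis kinase Ripk3 by 1.26 ± 0.18 log2 (adjusted p = 1.15e-05). The genes that fell were Fasl, the ligand of Fas, at 0.0483, 0.0760, 0.0252 and 0.276 CPM against 1.604 and 1.03 (-4.23 ± 0.77 log2, adjusted p = 1.21e-04), and the necroptosis effector Mlkl (-0.995 ± 0.244 log2, adjusted p = 0.00162). Of the caspase genes 7 of 10 rose, among them Birc3, an inhibitor of apoptosis, by 2.20 ± 0.24 log2 (adjusted p = 8.93e-07). In the BCL2 family 5 of 13 rose, near the share of 32.4% over all genes. They were led by Bok (2.97 ± 0.25 log2, adjusted p = 6.79e-08) and the Casp8 substrate Bid (1.69 ± 0.25 log2, adjusted p = 2.03e-05). Bcl2l14 fell, from 421 and 587 to 60.7, 44.03, 18.2 and 32.9 CPM (-4.32 ± 0.81 log2, adjusted p = 1.67e-04), and so did Bcl2l10, which has under 1 CPM in both groups.

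Of the p53 regulators, 4 of 11 rose and 3 fell at D30, near the shares of 32.4% and 35% over all genes. Besides Trp53, the checkpoint kinases Chek2 and Atm rose by 1.12 ± 0.25 log2 (adjusted p = 8.98e-04) and 1.67 ± 0.39 log2 (adjusted p = 0.00108). Ppm1d, the phosphatase that switches off p53 signalling, fell (-2.24 ± 0.25 log2, adjusted p = 1.17e-06), from 279 and 365 to 132, 117, 82.6 and 90.8 CPM, and the deubiquitinase Usp7 fell too (-1.10 ± 0.22 log2, adjusted p = 2.92e-04). Of the stress response genes 5 of 8 rose and Asns and Ddit3 fell. Atf3 rose by 4.52 ± 0.52 log2 (adjusted p = 1.44e-06) and Atf4 by 1.68 ± 0.20 log2 (adjusted p = 2.58e-06). Of the DREAM genes 7 of 10 fell and none rose, with Plk1 at 49.3, 43.8, 29.7 and 39.4 CPM against 91.03 and 97.7 (-1.85 ± 0.23 log2, adjusted p = 2.87e-06). Of the kinase inhibitors Cdkn2b and Cdkn1b rose and Cdkn1c and Cdkn2c fell, Cdkn1c by the largest difference of the list (-2.41 ± 0.20 log2, adjusted p = 7.88e-08).

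These differences at D30 stood beside large differences in cell type markers. The sum of 3 spermatid markers was 138 to 707 CPM at D30 and 6262 to 10153 at 36.5 dpp. The sum of 4 peritubular and stromal markers was 940.1 to 1519 against 137 to 237, that of 4 Sertoli cell markers 1116 to 1968 against 204 to 206, that of 3 endothelial markers 128 to 171 against 13.96 to 15.1 that of 4 macrophage markers 131 to 187 against 47.8 to 57.6, that of 3 erythroid markers 37.4 to 68.3 against 23.7 to 30.5 and that of 4 Leydig cell markers 288 to 521 against 823 to 1009. The groups overlapped in none of these sums, and their part in the differences of the genes described here was not tested. The share of genes past the threshold that were higher in culture depended on the scale. It was 60.7% with TMM, 50.1% with the library size alone and 57.7% with RLE factors at D4, 54.3% with TMM, 68.05% with the library size alone and 43.9% with RLE factors at D16 and 48.04% with TMM, 65.8% with the library size alone and 39.96% with RLE factors at D30.

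**Figure D4:**
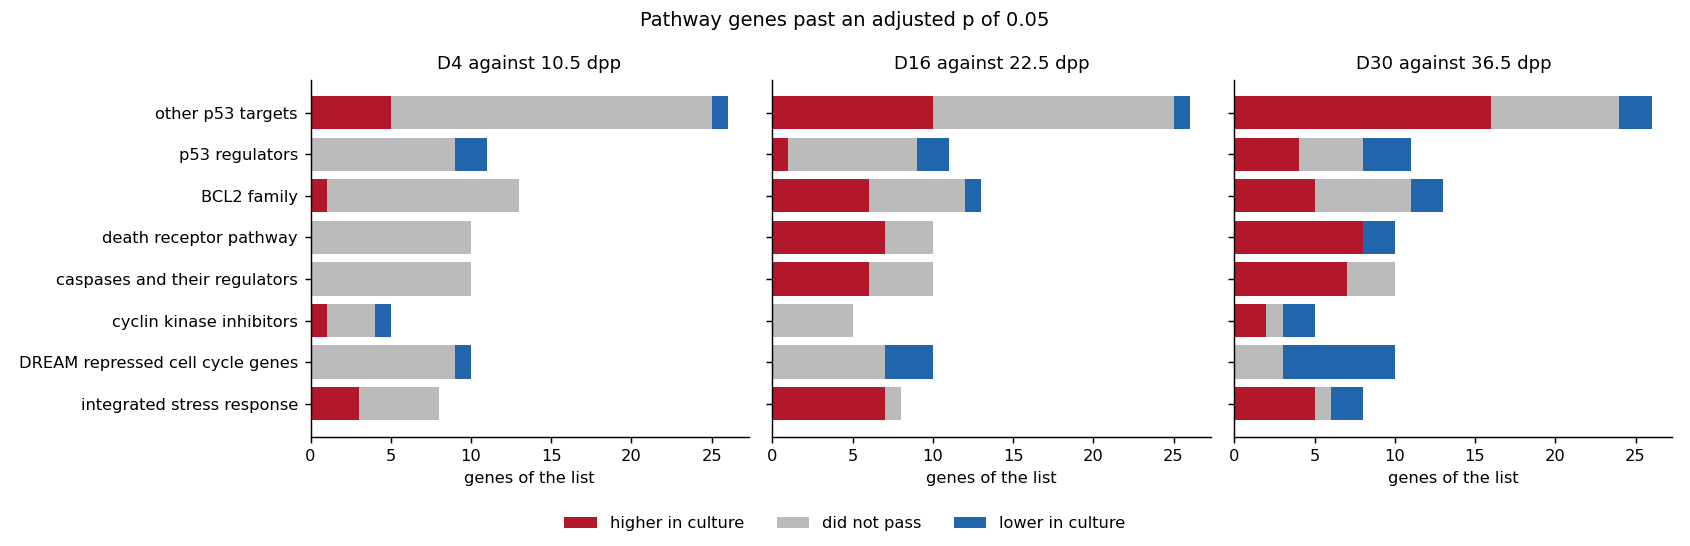
Number of genes in each of 8 pathway lists (horizontal bars) that were higher in culture (red), did not pass (grey) or were lower in culture (blue), at an adjusted p under 0.05, for D4, D16 and D30 against the age-matched testis. The red parts of the p53 target bar hold 5, 10 and 16 of 26 genes.

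**Figure D5:**
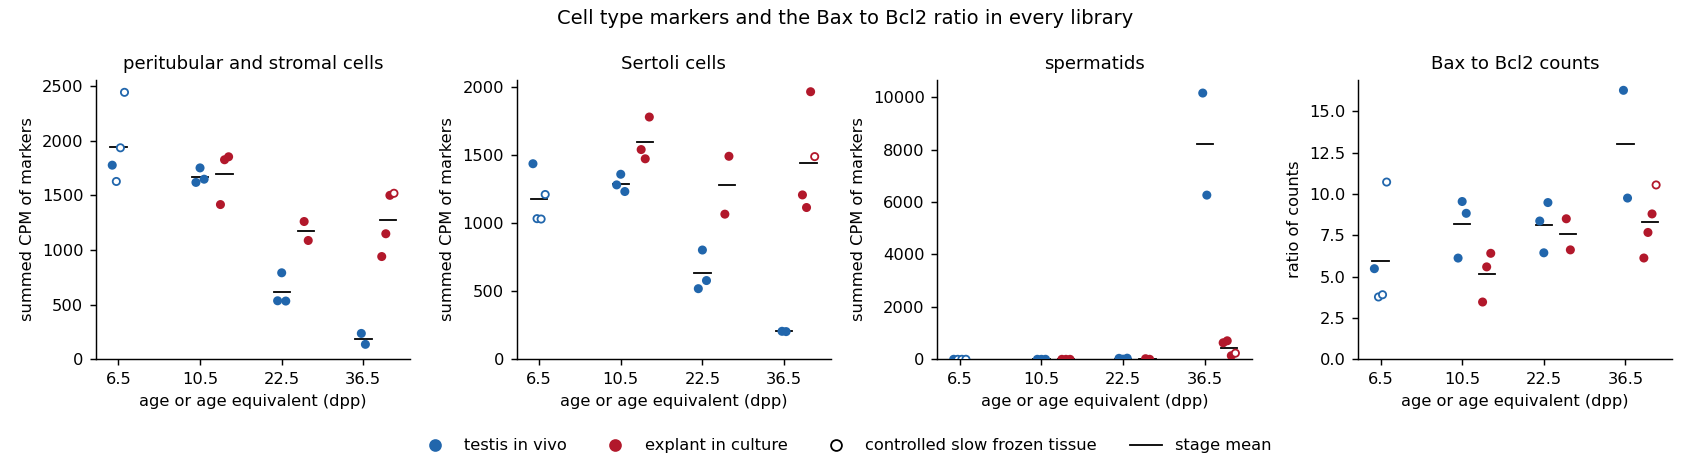
Summed CPM of markers of peritubular and stromal cells, Sertoli cells and spermatids, and the ratio of Bax to Bcl2 counts (vertical axes, from 0), against age or age equivalent in dpp, with 1 point per library, blue in vivo, red in culture and open for frozen tissue, and black lines for stage means. Stromal and Sertoli sums are lowest at 36.5 dpp in vivo, where the spermatid sum is highest, and the ratio overlaps between culture and testis at each age.

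The change with age in vivo was tested in the same lists. Most 6.5 dpp libraries were CSF and all those of later ages were FT, so freezing is a further difference from 6.5 dpp. At 10.5 against 6.5 dpp, 2 of 93 genes passed, Sesn2 (a rise of 0.88 ± 0.20 log2, adjusted p = 0.0349) and Cdkn2c (a difference of -1.25 ± 0.29 log2, adjusted p = 0.0374), where 1.14% of all genes did, and no list gene passed in edgeR with 6.5 dpp FT replicate 1 in the fit. Nor did any without 6.5 dpp CSF replicate 2 or 3, without any single library of 10.5 dpp, or without D4 replicate 2 or 3, and 1 gene passed without 22.5 dpp replicate 1 or D4 replicate 1. At 22.5 against 10.5 dpp, 19 rose and 42 fell, where 33.6% and 27.9% of all genes did. Of the further p53 targets 13 of 26 fell, among them Btg2 (-2.03 ± 0.24 log2, adjusted p = 1.25e-06), Plk3 (-1.71 ± 0.25 log2, adjusted p = 1.33e-05) and Eda2r (-1.92 ± 0.30 log2, adjusted p = 3.48e-05), and Tigar rose. Trp53 fell too (-0.85 ± 0.15 log2, adjusted p = 7.46e-05), while Atr and Ppm1d rose by 2.19 ± 0.26 log2 (adjusted p = 1.80e-06) and 1.23 ± 0.25 log2 (adjusted p = 3.90e-04). At 36.5 against 22.5 dpp, 16 rose and 40 fell, where 23.3% and 27.5% of all genes did. Of the p53 targets 16 of 26 fell, with the caspase activator Apaf1 at 3.03 and 4.17 CPM against 17.5, 29.6 and 16.7 (-2.03 ± 0.26 log2, adjusted p = 9.75e-06), and Ephx1 and Tnfrsf10b rose by 2.22 ± 0.24 log2 (adjusted p = 1.81e-06) and 1.43 ± 0.22 log2 (adjusted p = 6.63e-05). The share of called genes that were higher was 54.6% with TMM, 43.8% with the library size alone and 57.2% with RLE factors for the former pair of ages and 45.9% with TMM, 27.9% with the library size alone and 56.05% with RLE factors for the latter.

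The comparison of D4 with 6.5 dpp testis and the later days of culture were tested as well. All D4 libraries were FT, while 6.5 dpp held 1 FT and 3 CSF libraries, so freezing is a further difference there. At D4 against 6.5 dpp, 16 of 93 genes rose and 20 fell, where 10.8% and 10.1% of all genes did. Of the DREAM genes 7 of 10 fell, among them Plk1 (-1.28 ± 0.22 log2, adjusted p = 3.47e-04), Ccnb1 (-1.35 ± 0.26 log2, adjusted p = 0.00103) and Birc5 (-1.45 ± 0.32 log2, adjusted p = 0.00358), genes needed for mitosis. The median of this list was -1.26 here and -0.56 in vivo at 10.5 against 6.5 dpp. In that in vivo comparison 0 of the 10 passed with edgeR, 5 had an unadjusted p under 0.05 and 3 passed with DESeq2. Sesn2 rose by 1.87 ± 0.20 log2 (adjusted p = 3.16e-06), from 67.2, 71.5, 47.7 and 36.8 to 173, 208 and 218 CPM, and Perp and Plk2 by 1.83 ± 0.39 log2 (adjusted p = 0.00246) and 0.75 ± 0.14 log2 (adjusted p = 8.32e-04). Trp63 was at 0.813, 0.863 and 0.956 CPM against 2.69, 3.08, 5.13 and 6.91 (-2.33 ± 0.34 log2, adjusted p = 7.50e-05). The count of 36 was 14 with 6.5 dpp FT replicate 1 added, 11 with fresh libraries alone, 23 without D4 replicate 2 and 34 without 6.5 dpp CSF replicate 3. At D16 against D4, 13 rose and 6 fell, where 18.4% and 5.48% of all genes did, with Cdkn2c (2.65 ± 0.33 log2, adjusted p = 8.05e-06), the testis cytochrome Cyct (3.14 ± 0.56 log2, adjusted p = 3.70e-04) and Aurka (1.92 ± 0.32 log2, adjusted p = 1.91e-04) among those that rose. That count of 19 was 5 without D16 replicate 1 and 10, 9 and 11 without D4 replicates 1, 2 and 3. At D30 against D16 none of the 93 passed with edgeR, where 1.79% of all genes did, while 8 had an unadjusted p under 0.05 and 2 passed with DESeq2.

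The difference between the culture effects of D30 and D4, each taken against the age-matched testis, was tested as a contrast of its own. It was positive in 43 of the 93 genes and negative in 14, where 25.8% and 20.7% of all genes were. Of the further p53 targets 16 of 26 were positive and 2 negative, and the positive ones include Eda2r (3.21 ± 0.47 log2, adjusted p = 5.84e-05) and Btg2 (2.62 ± 0.35 log2, adjusted p = 2.73e-05). The levels behind the difference lay mainly on the in vivo side for Btg2, which was at 53.9, 56.1 and 50.8 CPM at D4 and 28.2, 38.5, 46.1 and 38.4 at D30 in culture, and at 73.8, 78.1 and 69.5 at 10.5 dpp and 6.33 and 3.88 at 36.5 dpp in vivo. Plk2 lay between 55.03 and 68.8 CPM in all 9 culture libraries. In the death receptor list 8 of 10 were positive, with Casp8 at 2.75 ± 0.35 log2 (adjusted p = 1.95e-05), and Trp53 was at 1.85 ± 0.22 log2 (adjusted p = 1.06e-05). In culture neither was higher at D30 than at D4 by its mean. Trp53 went from 87.9 to 73.4 CPM, Casp8 from 52.0 to 41.6 and Eda2r from 5.26 to 5.59. The share of called genes that were positive was 55.5% with TMM, 78.9% with the library size alone and 45.6% with RLE factors.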

How the data were processed

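Poly(A) RNA of mouse testes and testis explants was sequenced with a stranded kit in 50-base single-end reads. Per the labels and the methods, the authors mapped the reads to GRCm38 by STAR 2.7.3a, and HTSeq 0.12.4 (intersection-nonempty) assigned them to genes. The deposited values are these raw counts per gene, without normalization. The strand setting and the annotation release are not given in the sources used here. Of 27466 genes, 27373 matched a RefSeq symbol by their Entrez identifier, and the rest held 0.0207% of counts.

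The 10 genes, the 8 pathway lists and the marker lists were chosen with earlier results of these data known. Each of 21 libraries was assigned to 1 of 7 stages, frozen with fresh. Counts were fitted with edgeR 4.0.16 in R 4.3.3 (TMM factors, genes kept by filterByExpr, quasi-likelihood test), p-values were adjusted by Benjamini-Hochberg over 19255 genes, and a gene passed at an adjusted p under 0.05. The SE is the absolute difference divided by the square root of F. DESeq2 1.42.0, other scalings, no filter, fresh libraries, the groups compared alone, a replicate block and each library left out were alternatives. Named genes are the members, up to 3 genes per list and direction with the smallest adjusted p, any gene of a list in which at most 5 passed, and the 3 genes most correlated with each member. Of the genes so named, 1 is not reported here. The steps were tested on simulated data for D4 against 10.5 dpp with 200 genes of 19089 changed. Of 100 genes changed 2-fold 29% were called, and of 100 changed 4-fold 84%, with 7 calls among unchanged genes.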

Additional observations from a re-analysis of the deposited data

Results flagged for a closer look

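In the 4 libraries of 6.5 dpp, CSF replicate 3 stood apart from the others in Bax and in Fas, and over all genes its Spearman correlation with FT replicate 2 was 0.964, against 0.985 and 0.984 for the other 2 CSF libraries. Bax was at 132.3 CPM in 6.5 dpp CSF replicate 3 and at 74.9, 71.04 and 75.2 CPM in the other 3, and Fas was at 4.27 CPM there and at 0.668, 1.12 and 0.584 in the others. By Dixon's test 2 of 20 groups of 4 were marked in this way, where chance marks about 1 in 20.

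The culture effect differed between D30 and D4, by a contrast of its own in edgeR, in 18 of the 26 further p53 targets. It was positive in 16 and negative in 2, where 25.8% and 20.7% of all genes were. The positive share of all called genes depended on the scale, at 55.5% with TMM, 78.9% with the library size alone and 45.6% with RLE factors. The named ones are Apaf1 (a difference of the 2 effects of 2.04 ± 0.32 log2, adjusted p = 1.02e-04), Btg2 (2.62 ± 0.35 log2, adjusted p = 2.73e-05), Eda2r (3.21 ± 0.47 log2, adjusted p = 5.84e-05), Ephx1 (-1.87 ± 0.31 log2, adjusted p = 1.65e-04) and Tnfrsf10b (-0.97 ± 0.29 log2, adjusted p = 0.0105).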

How the results depend on the processing

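The count of pathway genes that passed was 15 at D4, 44 at D16, 67 at D30, 2 at 10.5 against 6.5 dpp, 61 at 22.5 against 10.5 dpp, 56 at 36.5 against 22.5 dpp, 36 at D4 against 6.5 dpp, 19 at D16 against D4, 0 at D30 against D16 and 57 for the difference of the D30 and D4 effects. With a log2 change of at least 2 and an adjusted p of at most 0.001 these were 1, 4, 22, 0, 12, 4, 2, 3, 0 and 12. With 6.5 dpp FT replicate 1 in the fit, the count was 6 at D4, 0 at 10.5 against 6.5 dpp, 14 at D4 against 6.5 dpp and 4 at D16 against D4. Fitted on the groups compared alone, it was 47 at D4, 19 at D16 and 0 at 10.5 against 6.5 dpp. With fresh libraries alone it was 0 at 10.5 against 6.5 dpp and 11 at D4 against 6.5 dpp. With DESeq2 it was 11 at 10.5 against 6.5 dpp and 2 at D30 against D16, and with the library size as the scale 1 at 10.5 against 6.5 dpp. The causes were not tested. Leaving out each library in turn gave 7 to 16 at D4, 17 to 51 at D16, 56 to 71 at D30, 0 to 3 at 10.5 against 6.5 dpp, 52 to 65 at 22.5 against 10.5 dpp, 38 to 59 at 36.5 against 22.5 dpp, 23 to 40 at D4 against 6.5 dpp, 5 to 23 at D16 against D4, 0 to 1 at D30 against D16 and 48 to 63 for the difference of effects. No pathway gene that was named and passed changed direction in any alternative.

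With the replicate number as a block the count was 15 at D4 and 1 at 10.5 against 6.5 dpp. Deviations of libraries with the same number had correlations from -0.64 to 0.73, and both values for D16 against 22.5 dpp were positive (0.63 and 0.73). In a group of 2 libraries the deviations mirror each other, and the labels do not give the animals. Whether the numbers pair the libraries therefore cannot be told.

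The D16 and 36.5 dpp stages hold 2 libraries each, and Fas, Gdf15 and Bbc3 have low counts, which limits what can be told of them.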
